A study of Mus musculus with 4 samples.

Results

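A set of 7 chemokine genes that the intestinal epithelium can make without infection were followed through crypt cells of mice after bone marrow transplantation. They were Ccl25, Ccl28, Ccl20, Ccl6, Ccl9, Cx3cl1 and Cxcl16, chosen by symbol, and all 7 of 7 were among the 31053 genes of the deposited matrices. The cells came from crypts of the small intestine, and droplet libraries of single-cell RNA were sequenced, in which each captured transcript is counted once through its unique molecular identifier (UMI). All recipients were female C57BL/6 mice of 8 to 12 weeks that had been lethally irradiated, and cells were taken 7 days after the transplant. Syngeneic recipients received marrow of C57BL/6 donors and served as controls, and allogeneic recipients received marrow of BALB/c donors and are labelled as having graft-versus-host disease, in which donor cells attack the host. A library was made from 3 to 4 mice pooled together, and there were 2 libraries per group (n = 2 pools throughout). Irradiation and transplantation are shared by both groups, no unirradiated mice were analysed here, and single mice cannot be told apart within a pool. Every library name starts with "KO", a term left unexplained in the labels.

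Chemokines are small secreted proteins that direct the movement of leukocytes through receptors on those cells. Ccl25 binds Ccr9 and draws lymphocytes to the small intestine, and Ccl28, a mucosal chemokine, binds Ccr10 and Ccr3. Ccl20 binds Ccr6 and is known from the epithelium over lymphoid follicles, and Ccl6 and Ccl9 are related ligands of Ccr1. Cx3cl1 (receptor Cx3cr1) and Cxcl16 (receptor Cxcr6) differ from the others in that they are made as membrane proteins and are released by the proteases Adam10 and Adam17.

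Library order below means the syngeneic libraries 1 and 2, then the allogeneic libraries 1 and 2, and rows of 4 values follow it. The libraries held 14961466 to 26677842 UMIs, and 12185 of 16565 barcodes were kept. Of these, 11629 carried epithelial markers and 423 carried T or NK-cell markers, 8, 28, 212 and 175 in library order. Another 18 cells, all in the allogeneic libraries, were myeloid-like. Library pairs shared 2 to 7 cell barcodes. The share of barcodes over the mitochondrial limit of 20% was 14.6%, 14.9%, 27.2% and 11.2%. Epithelial cells were gated into 7 classes by marker genes that hold no chemokine, and 2549 cells met no gate. A level is given as CPM, the UMIs of a gene scaled to the total over all genes of its class and library. T or NK-like cells were read beside them, library by library, as a gauge of free RNA, since they are another cell type of the same suspension. Their median depth was only 1214 to 1566 UMIs, against 4056 to 5641 in epithelial cells. They were also gated to hold at most 3 epithelial markers, so cells with more of these were kept out of the gauge. In syngeneic 1 this gauge also held epithelial RNA. Of the 17289 UMIs of its 8 cells, 4777 came from the 12 Paneth markers and 168 from the 11 goblet markers. Only 1 of these 8 cells reached 2000 UMIs, and that cell held all 7 Ccl9 UMIs of this pool. How the Paneth-marker UMIs were spread over the 8 cells was not tested. The Paneth markers gave 11, 681 and 49 UMIs in the T or NK-like cells of the other libraries, of 42507, 446644 and 309151.

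Expression clusters, formed without the 7 genes, separated cells of one class by transplant group. Of the cycling progenitor-like cells, a cluster led by Dmbt1 held 45.5%, 45.6%, 11.8% and 1.07% in library order, a cluster led by Olfm4 held 42.1%, 41.3%, 22.9% and 0.48%, and a cluster led by the interferon-inducible gene Cxcl9 held 0.79%, 0.66%, 33.9% and 62.05%. Goblet clusters held a further part of this class, 370 cells in all. That led by Agr2 held 9.52%, 10.8% and 5.66% in the first 3 libraries, and that led by AW112010, with interferon-inducible genes, held 14.4% in allogeneic 1 and 26.6% in allogeneic 2. Of the enterocyte-like cells, clusters led by Fabp6 and Clca4a held 49.8% and 48.6% in syngeneic 1 and 40.9% and 57.2% in syngeneic 2. A cluster led by Apob held 78.3% of those in allogeneic 1, and clusters led by Rbp2 and Ly6d held 42.5% and 42.6% in allogeneic 2. Of the Paneth-like cells, a cluster led by the defensin gene Defa21 held 71.2%, 63.9%, 38.1% and 19.2%, and a goblet cluster with interferon-inducible genes held 31.6% in allogeneic 2. Of the stem-like cells, the cluster led by Olfm4 held 83.1%, 87.7%, 48.2% and 9.01%, and that led by Cxcl9 held 63.1% in allogeneic 2. The fold changes of a class below therefore compare cells of one gate that lie in different clusters.

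The 5′ flanks of Ccl25 and Ccl20 are shown because both genes were highest in enterocyte-like cells of syngeneic mice, at very different levels. The letters are the 150 bases before each annotated start in the RefSeq promoter table (build GRCm38.p6), 5′ to 3′ on the gene's strand, which is the plus strand for both genes. Capitals mark matches to a motif, TTTAT or its reverse complement in Ccl25 and an NF-kB site in Ccl20. The first Ccl25 window is chr8:4325060-4325209, the second is chr8:4349438-4349587, within the locus and before its downstream start, and the Ccl20 window is chr1:83116616-83116765.
Ccl25 first start: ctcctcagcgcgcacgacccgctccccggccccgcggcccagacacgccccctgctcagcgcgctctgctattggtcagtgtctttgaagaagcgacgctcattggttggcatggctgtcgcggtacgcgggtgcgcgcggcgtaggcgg
Ccl25 second start: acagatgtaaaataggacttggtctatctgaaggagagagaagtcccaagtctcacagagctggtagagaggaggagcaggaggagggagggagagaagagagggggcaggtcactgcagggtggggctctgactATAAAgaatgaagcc
Ccl20: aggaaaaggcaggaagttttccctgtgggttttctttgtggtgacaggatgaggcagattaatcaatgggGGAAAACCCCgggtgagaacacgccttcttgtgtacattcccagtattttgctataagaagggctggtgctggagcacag
The first Ccl25 flank is 70.0% G and C and the second 52.7%, against 48.7% for Ccl20. Motifs were picked after these letters were read, and 4 were searched on both strands of windows of 300 bases: TTCNNNGAA (the GAS element of STAT factors), an NF-kB site, TTTAT, and an AP-1 site. They occur in 8.3%, 8.5%, 40.0% and 5.2% of 32851 such windows. Windows were found for 6 of the 7 genes. No window of the 6 genes held TTCNNNGAA, those of Ccl20 and Ccl9 held an NF-kB site, and that of Ccl28 held an AP-1 site. The windows of Ccl6 and Ccl9, whose starts lie 14451 bases apart on chromosome 11, aligned over 67 columns with 88.1% identity, where bases that face a gap are not counted. This stretch ran from -59 to 14 relative to the start in Ccl6 and from -18 to 48 in Ccl9. It is thus offset between the genes and mostly transcribed in Ccl9. A separate alignment of only the 250 bases before each start covered 17 columns, with 94.1% identity.

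Ccl25 lies on chromosome 8 (4325210-4360020, plus strand, GENCODE M21 on GRCm38) and Ccl28 on chromosome 13 (119623819-119654359, plus strand). Ccl20 lies on chromosome 1 (83116766-83119167, plus strand) and Cx3cl1 on chromosome 8 (94772009-94782427, plus strand). Ccl6 (83587882-83593087), Ccl9 (83572919-83578636) and Cxcl16 (70453983-70459984) lie on the minus strand of chromosome 11. All 7 are protein-coding. None of their sequences of 60 bases within the last 500 bases of a transcript occurs in another gene. Ccl25, Ccl6 and Cxcl16 overlap a gene on the opposite strand, namely Elavl1, E230016K23Rik and Zmynd15, and whether the authors' counting used strand is not given in the sources used here.

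The 7 genes divided by the class in which they were highest. In syngeneic mice Ccl25, Ccl20, Cx3cl1 and Cxcl16 were highest in enterocyte-like cells, Ccl6 and Ccl9 in goblet-like and Paneth-like cells, and Ccl28 in enteroendocrine-like cells. Ccl25 averaged 990 ± 24.5 CPM (SD, n = 2) in syngeneic enterocyte-like cells, about the level of Ccl6 in Paneth-like cells (1040 ± 239), and Ccl20 averaged 9.81 ± 2.65 CPM. These are counts of transcript ends, so levels of different genes are set side by side only as captured UMIs.

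**Figure D1:**
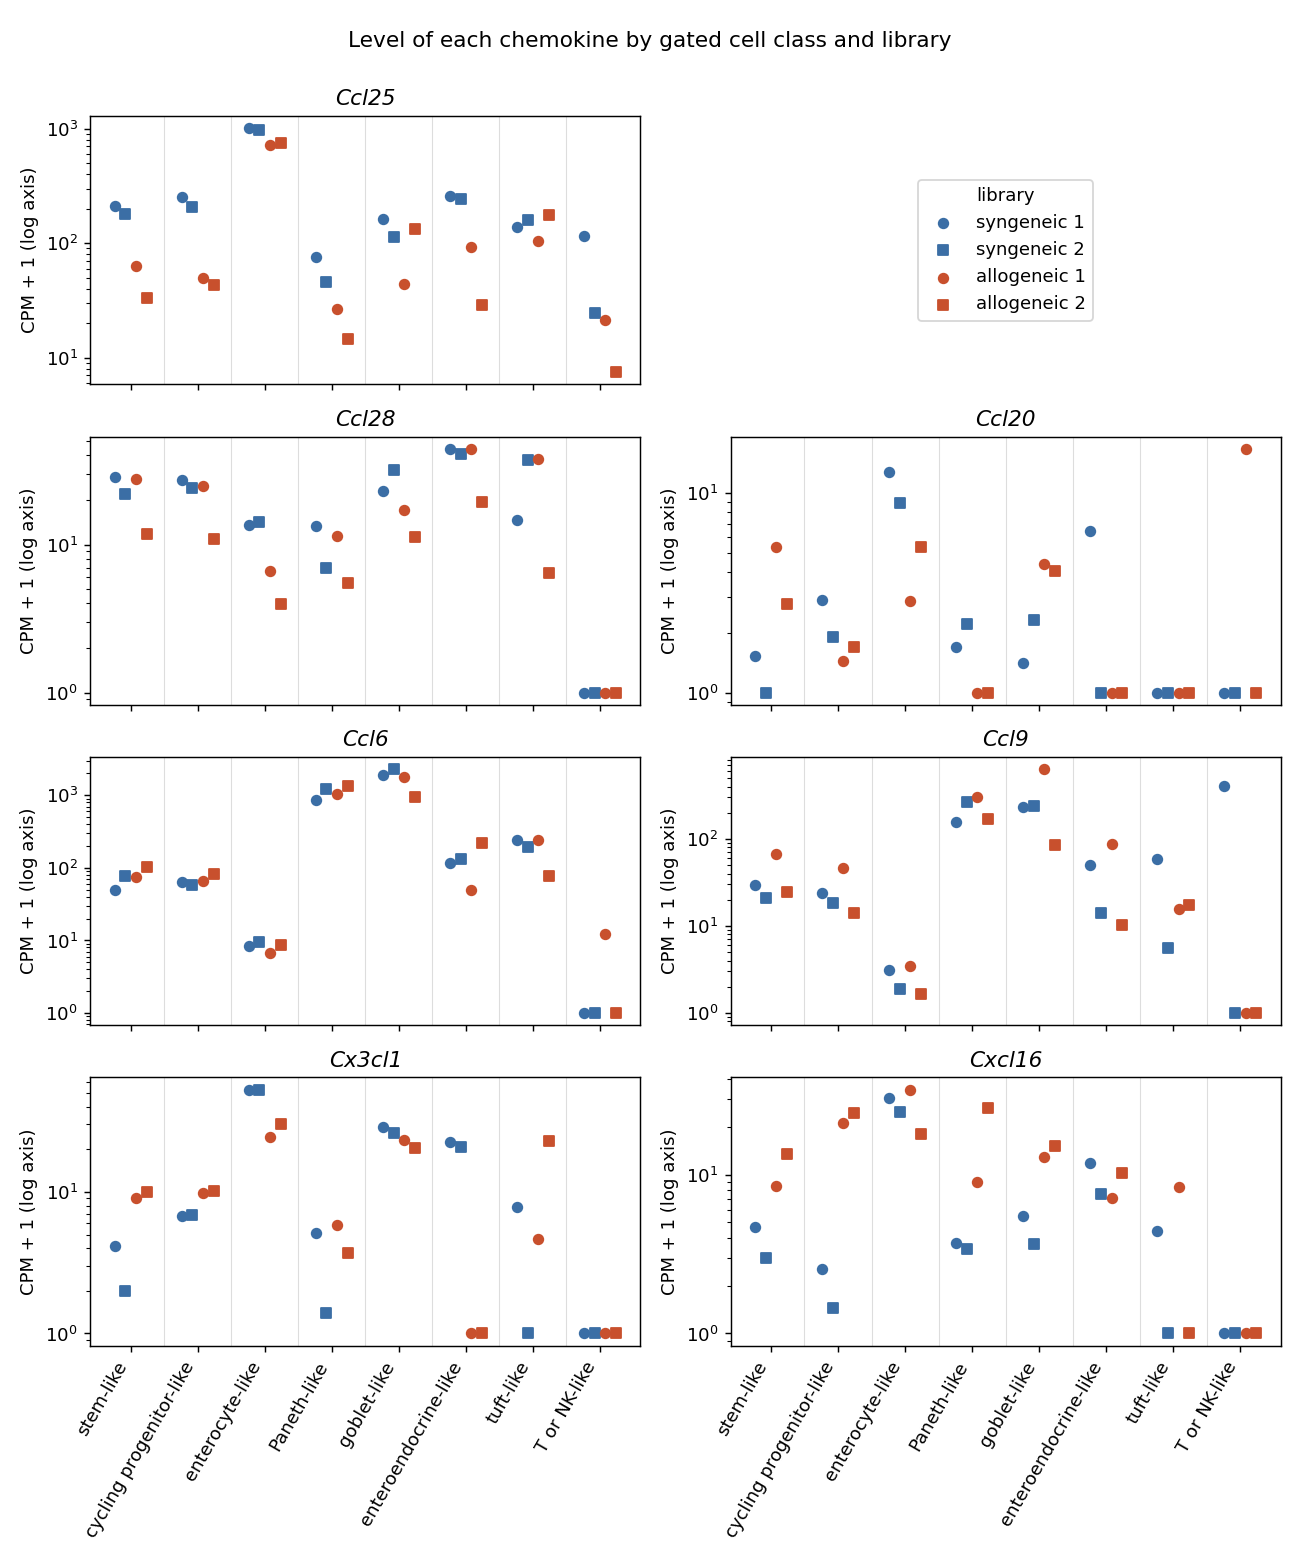
Level of each of the 7 chemokines by gated class, as CPM + 1 on a log axis, with 1 point per library (blue syngeneic, red allogeneic; circle replicate 1, square replicate 2). Ccl25 is highest in enterocyte-like cells at 725 to 1007 CPM, and Ccl6 in goblet-like cells at 1770.5 to 2289 CPM in 3 libraries but in Paneth-like cells (1329 against 960 CPM) in allogeneic 2, while points at 1 on the axis had no UMI.

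Allogeneic and syngeneic pools were compared gene by gene in sums per class and library with edgeR's quasi-likelihood test, adjusted over all genes of the class (Benjamini-Hochberg), with 0.05 as the threshold. Of the 7 genes, 6 passed the filter on low counts in cycling progenitor-like cells, where 1 rose and 1 fell. Of all 10022 genes tested there, 3.82% were called, 2.01% higher and 1.82% lower. In Paneth-like cells 5 were tested, 1 rose and 1 fell, against 1.21% of all genes called, 1.12% higher and 0.0864% lower. In stem-like cells 5 were tested and 1 fell, against 0.589% of all genes called, 0.0942% lower. Every one of these 5 calls concerned Ccl25 or Cxcl16. In all epithelial cells edgeR called 0 of 7, against 0.158% of all genes. There 2 had an unadjusted p under 0.05, as had 1191 of all 12019 genes, and DESeq2 called 2, against 335 of all genes. In enterocyte-like cells edgeR called 0 of 6, against 2.96% of all genes. There 3 had an unadjusted p under 0.05, as had 1322 of all 7910 genes, and DESeq2 called 0, against 283 of all genes. In goblet-like cells edgeR called 0 of 6, against 0.419% of all genes. There 2 had an unadjusted p under 0.05, as had 770 of all 9313 genes, and DESeq2 called 0, against 88 of all genes. The median log2 fold change of the tested members ran from -0.46 in enterocyte-like to 0.57 in stem-like cells, while the median over all genes lay between 0.0071 and 0.0356 in every fit.

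**Figure D2:**
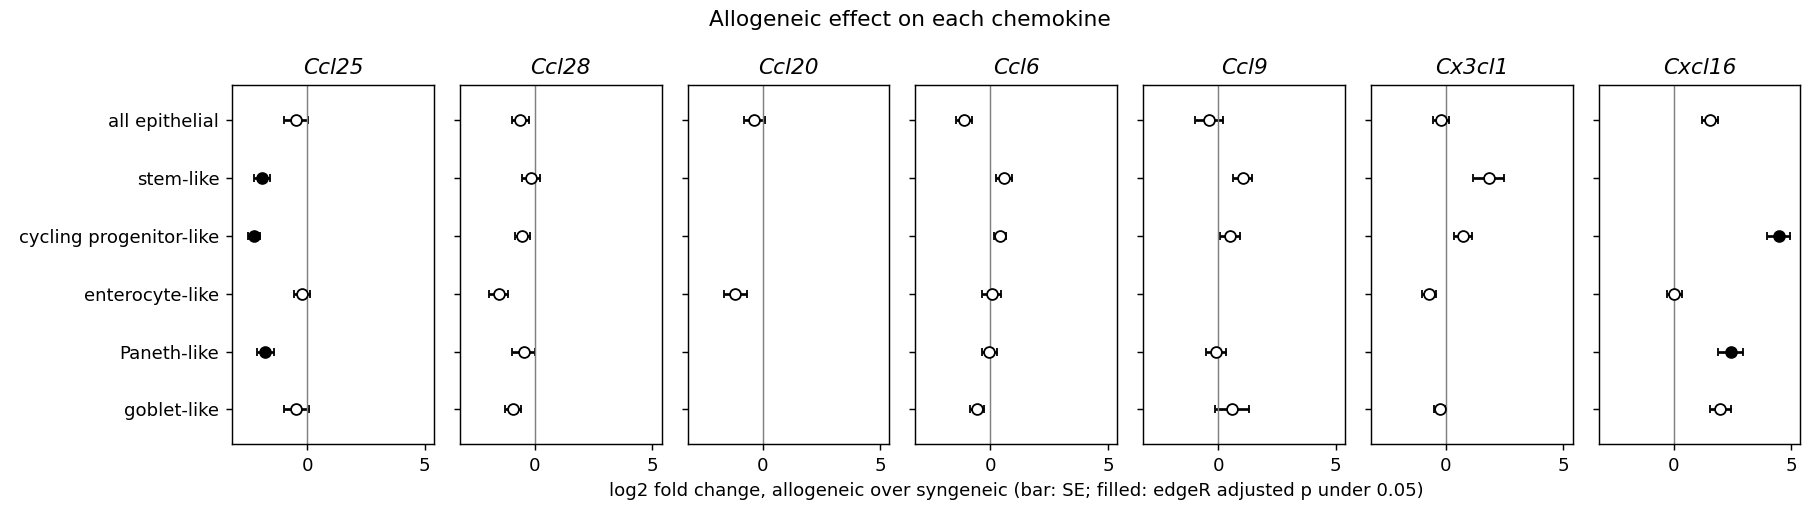
Log2 fold change of each chemokine, allogeneic over syngeneic, in all epithelial cells and 5 classes, with its SE as the bar; filled points passed an edgeR adjusted p of 0.05, and a gene without a point did not pass the filter on low counts. The filled points are Ccl25 in stem-like (-1.92), cycling progenitor-like (-2.27) and Paneth-like cells (-1.78) and Cxcl16 in cycling progenitor-like (4.47) and Paneth-like cells (2.42).

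Ccl25, the gut-homing ligand of Ccr9, fell in proliferating crypt cells of allogeneic mice. Cycling progenitor-like cells held 252, 207, 48.3 and 41.7 CPM of Ccl25 in library order, from 655, 456, 218 and 300 UMIs. Both allogeneic pools lay below both syngeneic pools, and the mean was 5.10 times as high in syngeneic as in allogeneic pools. On the log2 scale Ccl25 changed by -2.27 (SE 0.25, edgeR adjusted p = 0.000121), and that p was at most 0.000541 over the alternatives run. After each cell was thinned to 2000 UMIs, 36.7%, 28.6%, 7.92% and 8.86% of cycling progenitor-like cells had a Ccl25 UMI (73.0%, 66.2%, 36.2% and 23.5% unthinned), with 5, 8, 10 and 25 shallower cells left out. In T or NK-like cells, 2 of 8, 1 of 28, 9 of 212 and 2 of 175 had a Ccl25 UMI, or 115.7, 23.5, 20.2 and 6.47 CPM. This gauge of free RNA rests on 2, 1, 9 and 2 UMIs and was also lower in allogeneic pools, and its part in the result was not tested.

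Markers of other classes and of the gut segment also moved in the cycling progenitor-like cells. The 12 enterocyte markers summed to 957, 753, 431 and 656 CPM there, the 8 distal small-intestine markers to 731, 751, 210 and 409 CPM, and the 9 stem markers to 1943, 1891, 1455 and 708 CPM, all lower in both allogeneic pools. The 12 Paneth markers summed to 1181, 1101, 2290 and 1988 CPM, the 11 goblet markers to 1841, 1952, 2452 and 2854 CPM, and the 9 M-cell markers to 520, 559, 924 and 1150 CPM, all higher in both allogeneic pools. Gene by gene, 6 of the 8 distal markers were tested in this class, and Mep1a and Slc10a2 were called, 1 higher and 1 lower. The median log2 fold change of the 6 was 0.19, where 2.01% of all genes were called higher and 1.82% lower. The part of these values in the changes of Ccl25 and Cxcl16 in this class was not tested.

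Stem-like cells held 209, 181, 62.0 and 32.3 CPM of Ccl25, again with both allogeneic pools lowest. The change of Ccl25 was -1.92 on the log2 scale (SE 0.33, edgeR adjusted p = 0.0309), and Ccl25 there passed the threshold neither without syngeneic 1 (adjusted p = 0.199) nor without syngeneic 2 (0.0692), nor at a mitochondrial limit of 10% (0.0547). The 9 stem markers summed to 7266, 7012, 5596 and 2961 CPM in this class. Paneth-like cells held 74.2, 45.2, 25.7 and 13.6 CPM of Ccl25, with a log2 fold change of -1.78 (SE 0.37, edgeR adjusted p = 0.0245). The Paneth-like level in syngeneic 1 lay below that of its T or NK-like cells, and in the other 3 libraries it was above theirs. The T or NK-like level in syngeneic 1 rests on 2 Ccl25 UMIs in 8 cells. That pool was rich in Paneth-marker UMIs, and only 1 of its cells reached 2000 UMIs, so it is a weak gauge. Ccl25 in Paneth-like cells did not pass without syngeneic 1 (adjusted p = 0.307) or with a stricter gate (0.0609).

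Enterocyte-like cells, the main holders of Ccl25, showed a small difference. They held 1007, 973, 725 and 757 CPM, so both allogeneic pools were lower and the syngeneic mean was 1.34 times the allogeneic mean. The change was -0.21 on the log2 scale (SE 0.33, edgeR adjusted p = 0.809), and after thinning 79.8%, 74.3%, 73.4% and 71.9% of these cells had a Ccl25 UMI. Goblet-like cells held 163, 113, 42.6 and 133 CPM, with allogeneic 2 inside the syngeneic range. Over all epithelial cells Ccl25 stood at 358, 333, 149 and 309 CPM, with an edgeR adjusted p of 0.835. The enterocyte-like share of epithelial cells was 19.4%, 24.6%, 21.6% and 44.3%, and this class held 40.8%, 49.4%, 57.2% and 79.5% of all epithelial Ccl25 UMIs.

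The labels do not give the intestinal segment, and Ccl25 is known to vary along the small intestine, so markers of segments were read beside it. In enterocyte-like cells the 8 distal markers summed to 46836, 50606, 14579 and 26471 CPM, and the 10 proximal markers to 3074, 3079, 3339 and 1333 CPM. Gene by gene, the 8 distal markers had a median log2 fold change of 0.13 there, and 1, Fgf15, was called lower. Of the proximal markers 9 were tested, with a median of -1.01, and Adh6a and Cyp2d26 were called, 1 higher and 1 lower. Of all genes 2.96% were called in this class. Among the distal markers Fabp6, an ileal bile acid carrier, stood at 9471, 11151, 1259 and 7429 CPM over all epithelial cells. The 9 markers of the large intestine summed to 68.9, 82.7, 48.3 and 627 CPM in cycling progenitor-like cells, and allogeneic 2 held nearly all of the Car1 counts (1478 CPM over its epithelial cells against at most 0.149 elsewhere). The part of these values in the levels of the chemokines was not tested.

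Cxcl16, the membrane-bound ligand of Cxcr6, rose in cycling progenitor-like cells. These held 4, 1, 91 and 170 UMIs of Cxcl16, or 1.54, 0.454, 20.2 and 23.6 CPM. In syngeneic pools this was the class with the lowest mean, and in allogeneic pools it came close to the level of enterocyte-like cells. Cxcl16 changed by 4.47 on the log2 scale (SE 0.50, edgeR adjusted p = 0.000132), with an adjusted p of at most 0.000523 over the alternatives run. After thinning, 0 of 373, 0 of 297, 7 of 379 and 28 of 813 cells had a Cxcl16 UMI (0.529%, 0.328%, 14.9% and 14.1% unthinned, at median depths of 5791, 6209, 9693 and 7228.5 UMIs). The T or NK-like cells had no Cxcl16 UMI in any library, which allows up to 173.5, 70.6, 6.72 and 9.70 CPM. Cxcl16 was also found in the 18 myeloid-like cells, at 337 CPM. In cycling progenitor-like cells 5, 5, 6 and 8 of the 13 myeloid markers had a UMI, and they summed to 37.8, 45.0, 30.2 and 24.1 CPM, of which Cd14 made up 27.0, 31.3, 24.2 and 20.9. Csf1r, C1qb and C1qc, named only as examples, were at 0 there in all 4 libraries, while 8 of the 13 markers had a UMI in allogeneic 2. Of the 13 markers 2 passed the filter, and of these Itgam fell (-2.40, edgeR adjusted p = 0.0181), where 1.82% of all genes were called lower. The part of myeloid RNA in the Cxcl16 level was not tested.

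Paneth-like cells held 2.73, 2.40, 8.03 and 25.4 CPM of Cxcl16, from 8, 6, 10 and 28 UMIs. Cxcl16 changed by 2.42 there on the log2 scale (SE 0.55, edgeR adjusted p = 0.0415), and DESeq2 gave an adjusted p of 0.0879 for Cxcl16 there. Without allogeneic 2, syngeneic 1 or syngeneic 2 Cxcl16 did not pass in Paneth-like cells, nor did it with the stricter gate. With RLE scaling and with clusters in place of gates, only 1 member was called there. Goblet-like cells held 4.47, 2.64, 11.9 and 14.3 CPM, with a log2 fold change of 1.99 (SE 0.45, edgeR adjusted p = 0.234). In enterocyte-like cells Cxcl16 stood at 29.2, 23.8, 33.3 and 17.0 CPM, with the syngeneic values inside the allogeneic range and a log2 fold change of 0.03 (SE 0.33). Over all epithelial cells it stood at 6.72, 5.45, 14.6 and 19.2 CPM, which edgeR did not call (adjusted p = 0.197) and DESeq2 did (0.011). Cycling progenitor-like cells held 3.60%, 1.37%, 46.2% and 36.6% of all epithelial Cxcl16 UMIs.

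**Figure D3:**
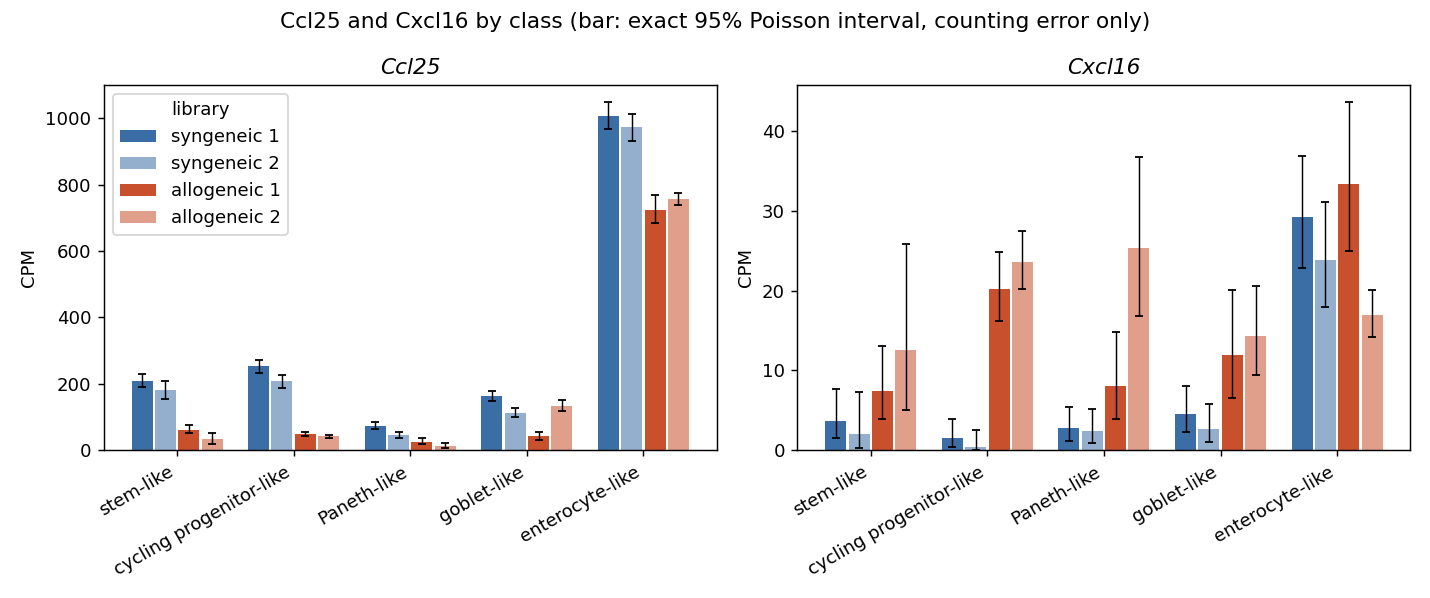
Ccl25 and Cxcl16 in 5 gated classes, as CPM on linear axes, with 1 bar per library and exact 95% Poisson intervals that cover counting error only. In cycling progenitor-like cells Ccl25 is lower in both allogeneic libraries (48.3 and 41.7 against 252 and 207 CPM) and Cxcl16 is higher (20.2 and 23.6 against 1.54 and 0.454 CPM).

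Whether the allogeneic effect differed between classes was tested in 1 model with the library as a block. In the comparison planned first, each class was set against the sum of the other gated cells of its library, and 4 of 35 tests of a member in a class passed. In that comparison neither Ccl25 (-2.40, SE 0.49, edgeR adjusted p = 0.244) nor Cxcl16 (3.54, SE 0.54, adjusted p = 0.103) passed in cycling progenitor-like cells, where 0.00871% of all genes passed. In enterocyte-like cells, where 4.15% of all genes passed, the effect on Ccl25 lay above that in the other cells by 1.38 (SE 0.21, adjusted p = 0.000358) and that on Cxcl16 below it (-2.70, SE 0.44, adjusted p = 0.00253) on the log2 scale. The effect on Ccl6 lay above that in the other cells in enterocyte-like cells (1.35, adjusted p = 0.0224) and in Paneth-like cells (1.39, adjusted p = 0.033, where 0.116% of all genes passed). Enterocyte-like cells held only 7.51, 8.38, 5.66 and 7.53 CPM of Ccl6, from 18, 19, 9 and 59 UMIs, and the groups overlapped. T or NK-like cells held 0, 0, 5 and 0 UMIs of Ccl6, or 11.2 CPM in allogeneic 1. Of these 4 differences only that of Cxcl16 passed in every alternative run (adjusted p at most 0.0166). Ccl25 in enterocyte-like cells did not pass without syngeneic 1 (0.163). Ccl6 in enterocyte-like cells did not pass without allogeneic 2 (0.561), syngeneic 1 (0.233) or syngeneic 2 (0.311), nor with clusters in place of gates (0.568). Ccl6 in Paneth-like cells did not pass without syngeneic 1 (0.718) or syngeneic 2 (0.0636), nor with clusters (0.677), a mitochondrial limit of 10% (0.0604) or a stricter gate (0.0522). No member passed in stem-like or goblet-like cells, where 0.0615% and 0.418% of all genes passed (edgeR). There, 4 and 3 of the 7 members had an unadjusted edgeR p under 0.05, against 679 of 11390 and 923 of 11241 genes. DESeq2 was not run for these differences. The sum of the other cells has a different makeup in each library.

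After that result had been seen, each of 4 classes was also set against the enterocyte-like cells alone, and 8 of 28 tests passed. There, the effect on Ccl25 in cycling progenitor-like cells lay below that in enterocyte-like cells by a log2 difference of -2.07 (SE 0.24, edgeR adjusted p = 3.96e-05), and that on Cxcl16 lay above it by 4.48 (SE 0.58, adjusted p = 0.000208), where 4.19% of all genes passed. In Paneth-like cells Ccl25 (-1.57, adjusted p = 0.000209) and Cxcl16 (2.46, adjusted p = 0.0092) passed, against 3.93% of all genes, in goblet-like cells Cxcl16 (2.02, adjusted p = 0.0446), against 1.32%, and in stem-like cells Ccl25 (-1.69, adjusted p = 0.00165), against 1.76%. Ccl25 and Cxcl16 in cycling progenitor-like cells were the 2 of the 8 that passed in every alternative run, with adjusted p values of at most 0.00353 for Ccl25 and 0.00103 for Cxcl16. Of the other 6, each was lost without syngeneic 1 (adjusted p 0.0791 to 0.612), and some also without another library. Since this comparison was chosen with the first in view, it is not independent of it.

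Cx3cl1, the other membrane-bound ligand, was not called in any class. Enterocyte-like cells held 51.8, 51.2, 23.3 and 29.4 CPM, both allogeneic pools being lower, with a log2 fold change of -0.71 (SE 0.29, edgeR adjusted p = 0.256). Cycling progenitor-like cells held 5.78, 5.91, 8.87 and 9.18 CPM, both allogeneic pools being higher (log2 fold change 0.73, SE 0.38, adjusted p = 0.427). Stem-like cells held 3.18, 1.004, 8.06 and 8.97 CPM, from 6, 1, 13 and 5 UMIs. Against enterocyte-like cells, the effect on Cx3cl1 lay higher by 2.65 in stem-like (adjusted p = 0.0294, 1.76% of all genes passing) and by 1.41 in cycling progenitor-like cells (adjusted p = 0.0303). Goblet-like cells held 27.7, 25.1, 22.2 and 19.3 CPM, and no Cx3cl1 UMI was found in T or NK-like cells. Adam10 and Adam17, which release both membrane-bound ligands, were tested in all 6 fits and called in none.

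Ccl6 was held mainly by the secretory lineage, and over all epithelial cells it had 8684, 9467, 4733 and 5266 UMIs against 5915, 4463, 2015 and 7460 of Ccl25, so it led in all libraries but allogeneic 2. Goblet-like cells held 1928, 2289, 1770.5 and 960 CPM, allogeneic 2 being lowest by a wide margin, and Paneth-like cells held 871, 1209, 1049 and 1329 CPM, where the groups overlapped. Neither difference was called, with log2 fold changes of -0.56 (SE 0.30, edgeR adjusted p = 0.691) and -0.06 (SE 0.32, adjusted p = 0.989). The 12 Paneth markers alone summed to 381142, 434706, 355655 and 289604 CPM in Paneth-like cells, which leaves less of the total for other genes. CPM is not scaled for this, while the fold changes use TMM scaling. Over all epithelial cells Ccl6 stood at 526, 707, 350.4 and 218 CPM (log2 fold change -1.11, SE 0.34, adjusted p = 0.345), which DESeq2 called (0.0369). Of all epithelial cells, 15.6%, 17.3%, 10.9% and 8.76% were goblet-like and 10.3%, 11.1%, 8.20% and 3.87% Paneth-like, and the part of these shares in the epithelial level was not tested. Cycling progenitor-like cells held 62.4, 56.3, 65.9 and 80.2 CPM of Ccl6, and none of the 5 classes tested had a called change of it.

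Ccl9, its neighbour on chromosome 11, went apart between the allogeneic pools. Goblet-like cells held 231, 241, 632 and 84.0 CPM, so allogeneic 1 was above and allogeneic 2 below both syngeneic pools. The change of Ccl9 was 0.59 on the log2 scale (SE 0.71, edgeR adjusted p = 0.885), and without allogeneic 1 it turned to -1.26 while without allogeneic 2 it was 1.38. Paneth-like cells held 156, 267, 300.1 and 170.4 CPM. A count of 7 Ccl9 UMIs in 1 of the 8 T or NK-like cells of syngeneic 1 gave 405 CPM there, in the pool noted above for its Paneth-marker UMIs, and the T or NK-like cells of the other 3 libraries had none. The 18 myeloid-like cells held 2427 CPM of Ccl6 and 534 CPM of Ccl9.

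Ccl28 was low and spread over the classes. Enteroendocrine-like cells held 43.4, 39.6, 43.2 and 18.5 CPM, from 16, 6, 7 and 2 UMIs, and cycling progenitor-like cells held 26.2, 23.2, 23.9 and 9.87 CPM. Allogeneic 2 was lowest in both classes, as it was over all epithelial cells (21.5, 21.4, 21.0 and 7.70 CPM). In enterocyte-like cells both allogeneic pools were lower (12.5, 13.2, 5.66 and 2.94 CPM), with a log2 fold change of -1.54 (SE 0.42, edgeR adjusted p = 0.085). No T or NK-like cell held a Ccl28 UMI.

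Ccl20 was close to the limit of detection, with 41, 32, 19 and 51 UMIs over all epithelial cells. Enterocyte-like cells held 28, 18, 3 and 34 of these UMIs, or 11.7, 7.94, 1.89 and 4.34 CPM, both allogeneic pools being lower (log2 fold change -1.16, SE 0.49, edgeR adjusted p = 0.265). The UMIs lay in only 12, 7, 3 and 21 enterocyte-like cells. In CPM, both allogeneic pools were also lower in cycling progenitor-like (5, 2, 2 and 5 UMIs) and Paneth-like cells (2, 3, 0 and 0 UMIs). Both were higher in stem-like (1, 0, 7 and 1 UMIs) and goblet-like cells (1, 3, 4 and 6 UMIs). 1 T or NK-like cell of allogeneic 1 held 7 Ccl20 UMIs. M cells are known from follicle-associated epithelium, and 8, 7, 7 and 8 of their 9 markers had a UMI in epithelial cells, with sums of 628, 681, 828 and 930 CPM. Pglyrp1 made up most of this (496, 565, 687 and 783 CPM), Spib, an M-cell transcription factor, stood at 2.12, 0.971, 2.15 and 0.538 CPM, and Gp2 was at 0 in all 4 libraries. Of 4 markers tested in cycling progenitor-like cells, Marcksl1 rose (1.19, edgeR adjusted p = 0.0233), where 2.01% of all genes were called higher. The part of these values in the Ccl20 level was not tested.

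**Figure D4:**
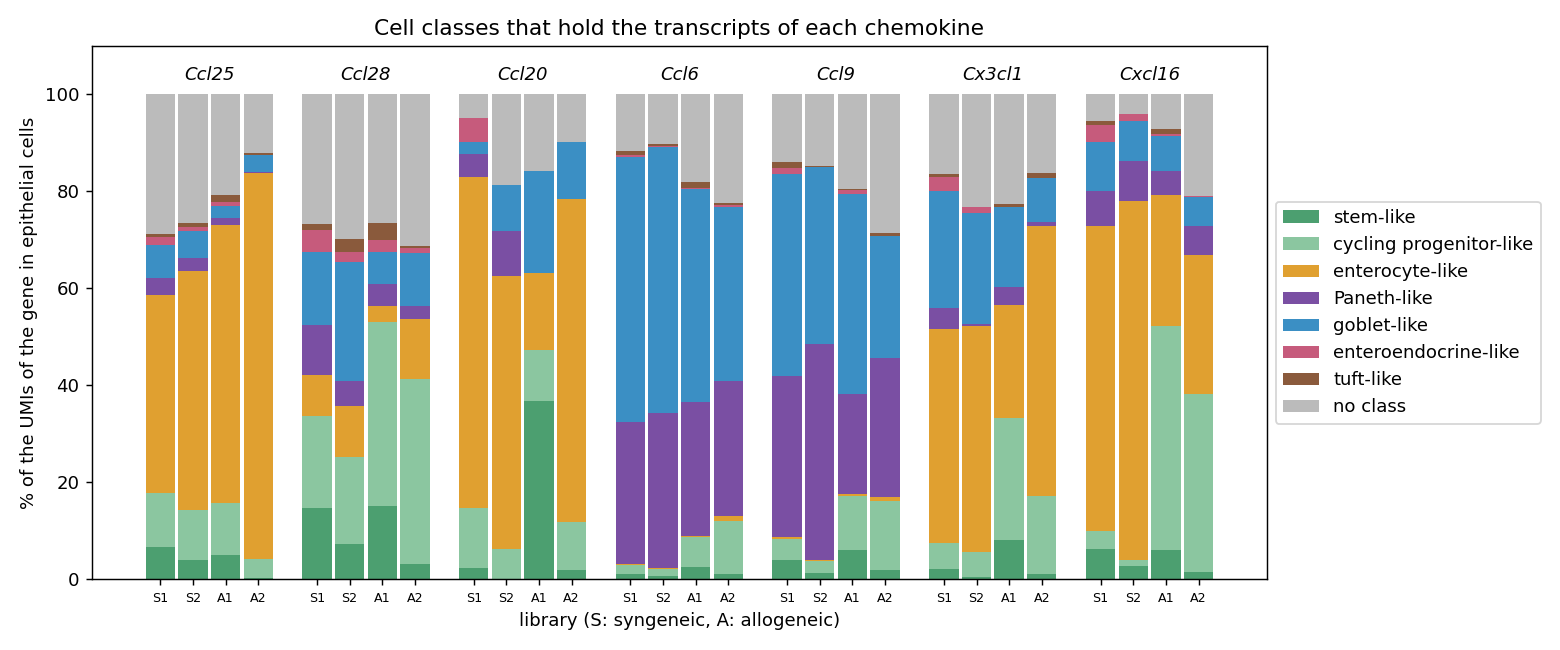
Share of the UMIs of each chemokine in epithelial cells that each gated class held, with 1 stacked bar per library (S syngeneic, A allogeneic). Cycling progenitor-like cells held 3.60% and 1.37% of Cxcl16 UMIs in syngeneic and 46.2% and 36.6% in allogeneic libraries, and enterocyte-like cells held 40.8% to 79.5% of Ccl25 UMIs.

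The receptors were read in the T or NK-like cells, without a test, because syngeneic 1 held only 8 of them. Cxcr6, the receptor of Cxcl16, had a UMI in 2 of 8, 1 of 28, 57 of 212 and 60 of 175 cells. Ccr9, the receptor of Ccl25, had one in 1 of 8, 6 of 28, 21 of 212 and 6 of 175 cells. Cx3cr1 had one in 3 of 212 and 3 of 175 allogeneic cells, Ccr1 in 1 and 1, and Ccr10, Ccr3 and Ccr6 in none. At these depths a count of 0 limits the share of cells with a captured UMI, for Ccr6 in allogeneic 1 to at most 1.72% (exact 95% binomial bound), and not the share that express the gene. In epithelial cells none of the 9 receptor genes passed the filter on low counts.

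Of 27 other chemokine ligands, 4 were tested in cycling progenitor-like cells and 2 rose, Cxcl9 and Ccl8, with none lower, where 2.01% of all genes rose and 1.82% fell. Cxcl9, an interferon-inducible ligand of Cxcr3, stood there at 1.16, 0.908, 200.5 and 463 CPM. Of 14 NF-kB feedback and target genes, 11 were tested in the same cells and 3 rose with none lower, a median log2 fold change of 0.50. They were Icam1 (2.90, SE 0.41, edgeR adjusted p = 0.000809), Nfkb2 (2.39) and Nfkbia (1.20). Icam1 also rose in Paneth-like cells (3.58, 1 of 9 of the list tested there) and goblet-like cells (4.62, 1 of 11), against 1.12% of all genes called higher in Paneth-like cells and 0.419% called in either direction in goblet-like cells. In stem-like cells Icam1 did not pass (2.09, adjusted p = 0.0568), and in enterocyte-like cells Bcl3 fell (-1.75, 1 of 10), where 2.96% of all genes were called. Of 10 genes that respond to IL-17 and IL-22, 7 were tested in cycling progenitor-like cells, and 1, Socs3, fell (-1.61).

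Over 28 points, 7 classes in 4 libraries, the gene whose log2(CPM + 10) was most like that of Ccl25 was Slc39a5, a zinc transporter (Pearson r = 0.942), followed by Maoa and Gm5485. Ramp1 was most like Ccl6 (r = 0.946) and Sytl2 most like Ccl9 (r = 0.906), and Ccl6 and Ccl9 had r = 0.851 with each other. Cxcl16 had its highest r with Ubd (0.746), Rab11fip1 (0.738) and Nfkbia (0.725), lower than the highest of any other member ranked. Myh9 was most like Ccl28 (r = 0.914) and Atp6v0a2 most like Cx3cl1 (r = 0.879). The points share libraries and depth, and these values describe the pattern over classes and carry no test.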

How the data were processed

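The deposited matrices hold UMI counts that the authors had not normalised. The submitters' processing notes name Cell Ranger 2.1.1 and the build mm10, and the file headers give software version 3.1.0. The annotation release is not given in the sources used here. Text tables of these counts were not used. Kept cells had 500 genes and 1000 UMIs or more and a mitochondrial share of up to 20%, and Scrublet's 100 doublet calls (0.81%) were removed. Cells with at least 3 epithelial markers and at most 1 T-cell marker counted as epithelial, and cells with at least 3 T or NK markers and at most 3 epithelial markers as T or NK-like. An epithelial cell took the class with the highest mean z-score of its markers (at least 0.3, and 0.25 above the next). These cutoffs were kept from 4 score and margin settings after marker tables and cell counts under each had been seen, and the levels of the 7 genes had been printed under the one kept. 5.8% to 28.3% of the cells of a class lie near the gate's limits.

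Sums of counts per library and class were tested with edgeR 4.0.16 (filterByExpr, TMM, robust quasi-likelihood fit, Benjamini-Hochberg) and, as an alternative, DESeq2 1.42.0, in R 4.3.3. An SE given with an edgeR value was not estimated by the fit. It is the absolute log2 value divided by the square root of the F statistic of its test. Clusters are from scanpy 1.11.5 (Leiden, 2000 variable genes without the 7, 30 components, 15 neighbours). The edgeR fits of all epithelial cells and of the 5 classes were run on simulated counts. They recovered 79 to 89 of the genes changed 4-fold, but only 8 to 39 of an equal number changed 2-fold, with 2 to 18 false calls. A gene that was not called may therefore still have changed 2-fold. Intervals are exact 95% Poisson or binomial (Clopper-Pearson) and cover counting error only; a count of 0 is bounded by 3 counts. The library totals were 18262459, 14961466, 16755124 and 26677842 UMIs. The 7 genes, the marker and gene lists were chosen with earlier results of these data known. The text names the 7 genes but does not give each of them in every class. From a list it names some of the highest or called genes, and Csf1r, C1qb, C1qc, Spib and Gp2 as examples that are neither. For each member with 200 or more UMIs it names up to 3 genes of most similar pattern. Replicate numbers follow the order of the records. Alternatives were other size factors, no filter, a mitochondrial limit of 10%, a gate margin of 0.5, clusters in place of gates, no thinning, and leaving out each library.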

Additional observations from a re-analysis of the deposited data

Results flagged for a closer look

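Tests of the allogeneic effect between classes marked 12 differences, given as log2 differences from edgeR's interaction test. In the comparison planned first, against the other gated cells of the library, these were 1.38 for Ccl25, 1.35 for Ccl6 (a level of only 5.66 to 8.38 CPM) and -2.70 for Cxcl16 in enterocyte-like cells, and 1.39 for Ccl6 in Paneth-like cells. Against enterocyte-like cells alone, a comparison added after those values were seen, the effect on Ccl25 lay lower in stem-like (-1.69), cycling progenitor-like (-2.07) and Paneth-like cells (-1.57). The effect on Cx3cl1 lay higher in stem-like (2.65) and cycling progenitor-like cells (1.41). The effect on Cxcl16 lay higher in cycling progenitor-like (4.48), Paneth-like (2.46) and goblet-like cells (2.02). Of the 4 differences planned first, that of Cxcl16 passed in every alternative run, while those of Ccl25 (adjusted p up to 0.163) and Ccl6 (up to 0.568) in enterocyte-like and of Ccl6 (up to 0.718) in Paneth-like cells were each lost in at least 1. Of the 8 differences from enterocyte-like cells, those of Ccl25 and Cxcl16 in cycling progenitor-like cells passed in every alternative run, and each of the other 6 was lost in at least 1.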

How the results depend on the processing

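No paired analysis was possible because the replicate numbers follow the order of the records and pair no libraries. The fall of Ccl25 and the rise of Cxcl16 in cycling progenitor-like cells kept their direction and their call under all alternatives run. With 2 pools per group, leaving out 1 assumes that the lone pool varies like the other group. Members called without 1 library ranged from 0 to 4 in all epithelial cells, 0 to 2 in stem-like, 2 to 5 in cycling progenitor-like, 0 to 2 in enterocyte-like, 0 to 2 in Paneth-like and 0 to 4 in goblet-like cells. Genes called ranged from 99 to 5694, 26 to 1092, 167 to 3353, 118 to 3134, 37 to 627 and 37 to 2516 in the same order, against 19, 50, 383, 234, 98 and 39 with all libraries, and calls between classes from 2 to 12, against 4.

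With no filter on low counts, genes called numbered 524 in all epithelial, 184 in stem-like, 672 in cycling progenitor-like, 668 in enterocyte-like, 206 in Paneth-like and 359 in goblet-like cells, with 1 member called in each of all epithelial, enterocyte-like and goblet-like cells and 8 calls between classes. DESeq2 called 335 genes and 2 members in all epithelial cells, 88 genes in goblet-like and 1 member in Paneth-like cells, and RLE scaling 1 member in Paneth-like cells. At the mitochondrial limit of 10%, 0 genes were called in all epithelial cells (19 at 20%) and 0 members in stem-like cells. With clusters in place of gates, 187 stem-like, 769 cycling progenitor-like, 161 Paneth-like and 113 goblet-like genes were called, 1 member in Paneth-like cells, and 2 between classes. The stricter gate called 0 members in Paneth-like cells, and the comparison with enterocyte-like cells, added after the data were seen, called 8. The causes were not tested.

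Uncalled log2 fold changes turned sign for Ccl20 in all epithelial cells (0.026) and Cxcl16 in enterocyte-like cells (-0.629) at the 10% limit, for Ccl9 in Paneth-like cells with the stricter gate (0.094), and with clusters for Ccl28 (0.017) and Ccl6 (-0.355) in stem-like, Cx3cl1 in cycling progenitor-like (-0.175) and Ccl9 in goblet-like cells (-0.045). With clusters, the difference of Cx3cl1 in cycling progenitor-like cells against the others turned to -0.056 and that of Ccl6 in stem-like against enterocyte-like cells to -2.232. Without 1 library, log2 fold changes that changed sign ranged, in all epithelial cells, from -1.377 to 0.066 (Ccl25), -0.952 to 0.022 (Ccl20), -1.619 to 0.282 (Ccl9) and -0.759 to 0.173 (Cx3cl1). They ranged from -1.074 to 0.061 for Ccl28 in stem-like and from -0.420 to 1.087 for Ccl9 in cycling progenitor-like cells. In enterocyte-like cells they ranged from -0.442 to 0.278 (Ccl6) and -0.290 to 0.369 (Cxcl16). In Paneth-like cells they ranged from -1.276 to 0.001 (Ccl28), -0.373 to 0.339 (Ccl6) and -0.603 to 0.5 (Ccl9). In goblet-like cells they ranged from -1.730 to 0.183 (Ccl25) and -1.258 to 1.382 (Ccl9), and goblet-like against enterocyte-like differences from -1.307 to 0.201 (Ccl25) and -1.204 to 0.163 (Ccl6).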
